A study of Homo sapiens with 8 samples.

Results

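HSD11B1, HSD11B2, H6PD, NR3C1, TSC22D3, FKBP5, SGK1 and KLF9 are genes that activate cortisol, inactivate it, sense it or respond to it. These 8 genes were chosen by name, after HSD11B1 had been seen to rise steeply when CYP1B1 was knocked down in SW480 cells, out of 16829 genes in the deposited tables. All 8 were among the 14157 genes with enough counts to be tested, but HSD11B1 and NR3C1 passed that filter through SW480 libraries alone. Transcripts were measured by RNA-seq of polyadenylated RNA in RKO and SW480, established human lines from colorectal cancer, in 4 groups of 2 libraries. In RKO, CYP1B1 was overexpressed from a lentivirus and compared with control. In SW480, a lentiviral hairpin to CYP1B1 (shCYP1B1) was compared with one that has no target (shNT). CYP1B1 is a cytochrome P450 that hydroxylates estrogens and other lipids. All groups grew in DMEM with 10% serum, no added glucocorticoid is named in the labels, and knockdown rests on 1 hairpin.

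Cortisol acts through the glucocorticoid receptor, encoded by NR3C1, a transcription factor that waits in the cytoplasm on a chaperone complex and moves to the nucleus when hormone binds. Cells set their own hormone supply: the enzyme of HSD11B1 regenerates cortisol from inert cortisone inside the endoplasmic reticulum, using NADPH that the enzyme of H6PD makes there, and the enzyme of HSD11B2 does the reverse and inactivates cortisol. TSC22D3 (also called GILZ), FKBP5, SGK1 and KLF9 are widely used as transcripts that the hormone-bound receptor induces, and each also answers to other signals. HSD11B2 and SGK1 are best known in the colon and kidney, where they belong to the control of sodium uptake by aldosterone.

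Promoter windows show the sequence context of the genes that changed. RefSeq tables on GRCh38.p14 gave windows of 250 bases before to 50 bases after a transcript start for 7 of the 8 genes, 19 windows in all, and HSD11B2 was not among them. The full palindrome to which receptor dimers bind (AGAACA, any 3 bases, then TGTTCT) was in 0 of the 19 windows and in 0.00285% of all 35116 windows. Its looser core (GNACA, any 3 bases, then TGTNC) was also in 0 of the 19, against 0.39% of all windows. The half-site TGTTCT, read as AGAACA on the other strand, lay in 1 window each of H6PD, FKBP5 and SGK1, that is in 3 of 19 windows against 14.8% of all windows. Searches covered both strands, the full palindrome contains the half-site, and a match describes letters, not binding. Shown first are HSD11B1, the gene with the largest change, and then H6PD, KLF9 and the first listed of the 4 windows of TSC22D3. Windows 3 and 4 of TSC22D3 lie elsewhere in the gene, at chrX:107717013-107717312 and chrX:107716459-107716758, and are not printed. Gene counts do not show which TSC22D3 start was used. H6PD, KLF9 and TSC22D3 were lower in RKO with overexpression and higher in SW480 with shCYP1B1. FKBP5 and SGK1 (the second of 3 windows) follow because they hold a half-site, which capitals mark wherever it occurs. All are 5′ to 3′ on the strand of the gene.
HSD11B1, chr1:209685929-209686228, plus strand: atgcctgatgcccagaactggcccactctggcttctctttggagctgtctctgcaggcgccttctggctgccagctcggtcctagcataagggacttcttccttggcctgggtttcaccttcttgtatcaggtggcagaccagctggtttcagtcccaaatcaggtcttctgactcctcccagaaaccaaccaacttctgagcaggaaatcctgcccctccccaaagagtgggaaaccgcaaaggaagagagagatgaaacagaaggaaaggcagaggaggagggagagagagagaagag
H6PD, chr1:9239597-9239896, plus strand: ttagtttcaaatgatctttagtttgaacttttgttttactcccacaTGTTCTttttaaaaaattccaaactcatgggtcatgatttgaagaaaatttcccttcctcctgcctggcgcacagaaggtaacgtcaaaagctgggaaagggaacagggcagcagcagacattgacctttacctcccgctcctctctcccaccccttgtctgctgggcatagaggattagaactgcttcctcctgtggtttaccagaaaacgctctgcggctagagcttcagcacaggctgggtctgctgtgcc
KLF9, chr9:70414608-70414907, minus strand: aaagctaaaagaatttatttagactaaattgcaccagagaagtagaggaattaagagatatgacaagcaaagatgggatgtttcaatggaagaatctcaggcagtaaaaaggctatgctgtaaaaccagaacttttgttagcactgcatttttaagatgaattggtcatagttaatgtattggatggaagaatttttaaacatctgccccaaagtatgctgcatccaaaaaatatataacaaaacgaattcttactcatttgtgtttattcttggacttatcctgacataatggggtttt
TSC22D3, chrX:107775939-107776238, minus strand: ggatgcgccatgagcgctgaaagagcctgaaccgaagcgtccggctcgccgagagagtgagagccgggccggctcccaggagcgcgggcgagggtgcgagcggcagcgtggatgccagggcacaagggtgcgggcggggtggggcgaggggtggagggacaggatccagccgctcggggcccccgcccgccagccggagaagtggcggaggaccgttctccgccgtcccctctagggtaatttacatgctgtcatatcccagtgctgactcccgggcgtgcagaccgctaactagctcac
FKBP5, chr6:35728534-35728833, minus strand: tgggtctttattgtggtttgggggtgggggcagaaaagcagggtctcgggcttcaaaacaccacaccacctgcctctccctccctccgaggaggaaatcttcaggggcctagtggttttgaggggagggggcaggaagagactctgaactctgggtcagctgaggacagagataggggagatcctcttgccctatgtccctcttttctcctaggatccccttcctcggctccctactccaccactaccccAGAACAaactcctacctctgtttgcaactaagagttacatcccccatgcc
SGK1, chr6:134177812-134178111, minus strand: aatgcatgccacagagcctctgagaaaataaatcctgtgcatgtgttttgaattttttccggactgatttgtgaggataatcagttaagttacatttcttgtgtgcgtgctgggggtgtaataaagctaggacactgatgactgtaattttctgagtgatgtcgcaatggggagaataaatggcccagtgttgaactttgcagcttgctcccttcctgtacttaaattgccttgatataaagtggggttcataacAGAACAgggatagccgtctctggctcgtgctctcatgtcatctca

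The manipulations were visible at the targeted gene. CYP1B1 stood at 85.0 and 101 FPKM (fragments per kilobase, scaled to library size, a level corrected for gene length) in RKO cells with overexpression, against 0.134 and 0.139 FPKM in RKO control cells. In SW480 it was listed at 0.0679 and 0.0556 FPKM with shCYP1B1, against 0.274 and 0.421 FPKM with shNT, so the knockdown worked on a gene with 12 and 10 reads against 50 and 76. By edgeR's quasi-likelihood test with Benjamini-Hochberg adjustment over all genes, CYP1B1 rose by 9.42 on the log2 scale (SE 0.18, adjusted p = 7.93e-11) in RKO and fell by 2.44 (SE 0.31, adjusted p = 6.43e-05) in SW480. Libraries held between 31550173 and 34921085 counts. The overexpression pair was the least alike, with 48 of 10167 well measured genes differing by over 2-fold between its libraries, compared with 2 to 4 genes in the other pairs. Whether replicates were grown separately is not said in the labels, so every p-value here reflects library-to-library spread that may be technical. Colon epithelial markers summed to between 3020 and 3280 FPKM in SW480 and between 154 and 177 FPKM in RKO, where KRT20, CDX1 and LGALS4 were listed at 0.

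**Figure D1:**
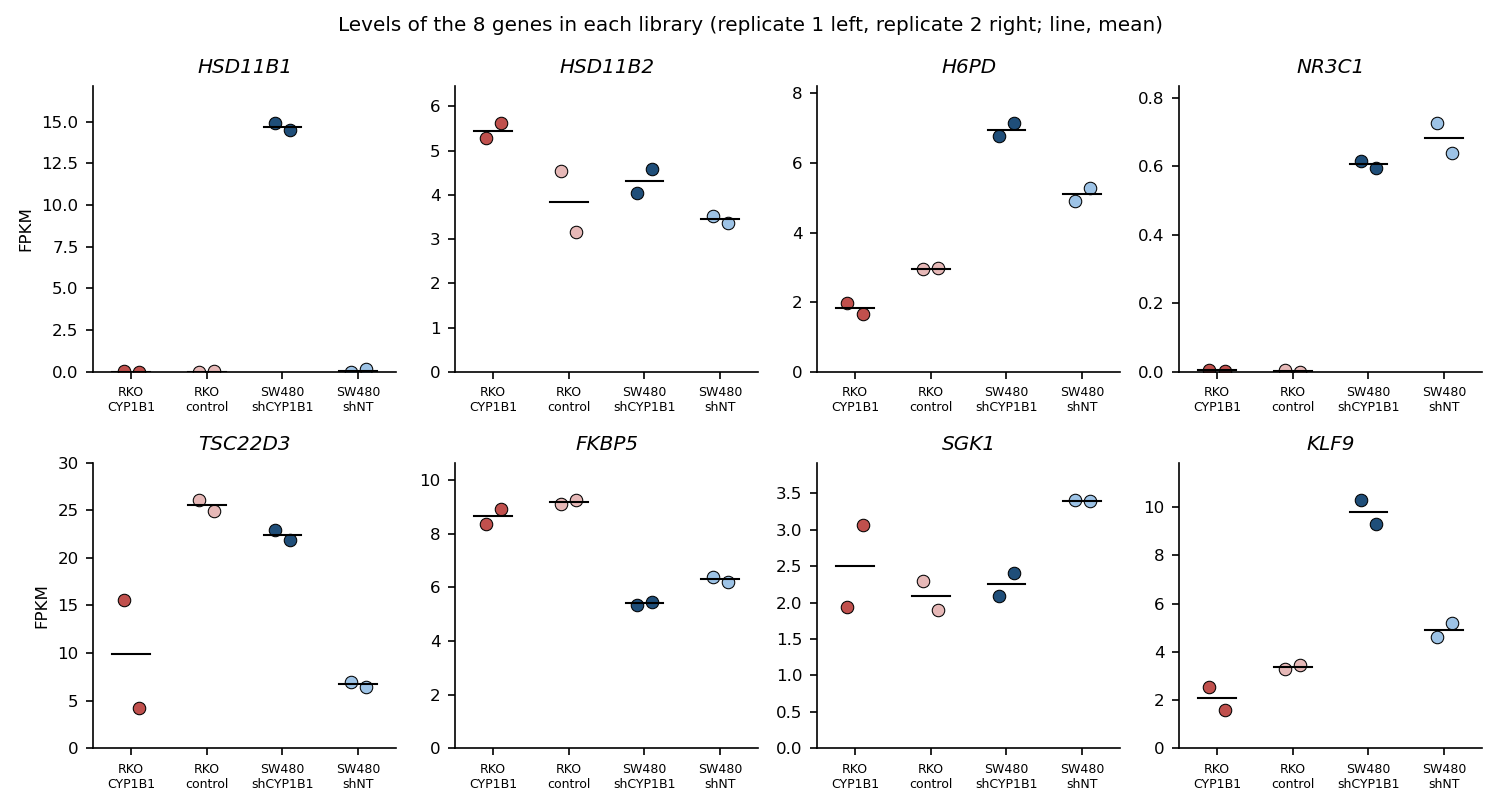
FPKM of the 8 genes in each of the 8 libraries, 1 panel per gene with its own linear axis from 0. Points are libraries and lines are group means. HSD11B1 is high in the SW480 shCYP1B1 libraries alone, at 14.9 and 14.5 FPKM, and NR3C1 is near 0 in all RKO libraries.

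HSD11B1, the cortisol-regenerating enzyme, was at a moderate level in SW480 knockdown cells and near silent in every other group. It had 754 and 745 reads in the shCYP1B1 libraries, against 0 and 8 reads in the shNT libraries, which corresponds to 14.9 and 14.5 FPKM against 0 and 0.155 FPKM. The groups did not overlap, and both knockdown libraries were alike. Over the summed reads the ratio was 191, with a 95% counting interval of 96.5 to 442, and the fitted log2 fold change was 7.57 (SE 0.51). These values chose the gene and are given as a description, without a test. The fitted value depended on the few shNT reads: it was 6.6 without shNT replicate 1, which had none, and 12.57 without shNT replicate 2. In RKO, HSD11B1 had 1 and 0 reads with overexpression and 0 and 1 in control cells, so no fold can be given. HSD11B1 spans chr1:209686178-209734950 on the plus strand (GRCh38, GENCODE release 29).

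Genes beside HSD11B1 on chromosome 1 were also higher in the knockdown. Of 5 neighbouring genes of the table, 3 before it and 2 after it, 4 could be tested in SW480 and 4 of these rose, where 25.3% of all genes tested rose. G0S2, an inhibitor of the triglyceride lipase ATGL whose gene lies 9790 bp away, had 41.6 and 46.8 FPKM with shCYP1B1, against 6.15 and 6.47 FPKM with shNT (log2 fold change 2.85, edgeR adjusted p = 4.82e-06). LAMB3, a laminin chain gene 33712 bp away, had 23.9 and 23.8 FPKM against 8.53 and 8.07 FPKM (1.56, edgeR adjusted p = 4.7e-06). On the other side, TRAF3IP3, 21082 bp away, had 1.48 and 1.72 FPKM with shCYP1B1 and 0.315 and 0.135 FPKM with shNT (2.86, edgeR adjusted p = 0.00113). The step was smaller for C1orf74. That gene, 44258 bp away, had 3.35 and 3.45 FPKM with shCYP1B1, against 1.70 and 1.98 FPKM with shNT (0.93, edgeR adjusted p = 0.00617). TRAF3IP3 (chr1:209756032-209782320, plus strand) and C1orf74 (chr1:209779208-209784559, minus strand) overlap. Use of strand in counting is not given, so their reads, and their rises, may not be separate. CAMK1G, the most distant at 72240 bp, had 4 and 8 reads with shCYP1B1 and 0 and 0 with shNT and was not tested. Without shNT replicate 1 the call for C1orf74 was lost (adjusted p = 0.0562) and 3 of the 4 rose.

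In RKO, TRAF3IP3 had 1 and 0 reads with overexpression and 0 and 0 in control cells and could not be called. Of the other 3 neighbours 1 fell, 0 rose and 2 did not pass, where 13.8% of all genes tested fell, and the count was 0 without either control library and 3, all lower, without overexpression replicate 1. G0S2 had 56.8 and 29.8 FPKM with overexpression, against 52.6 and 47.8 FPKM in control cells, and did not pass (-0.20, edgeR adjusted p = 0.552). LAMB3 had 13.5 and 9.31 FPKM against 17.5 and 16.3 FPKM, and it fell (-0.55, edgeR adjusted p = 0.0105). Without RKO control replicate 1 its adjusted p was 0.0924 and without control replicate 2 it was 0.0505, while its log2 fold change was -0.84 without overexpression replicate 1 and -0.31 without overexpression replicate 2. G0S2 was thus abundant in RKO while HSD11B1 was at or below 1 read per library.

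**Figure D2:**
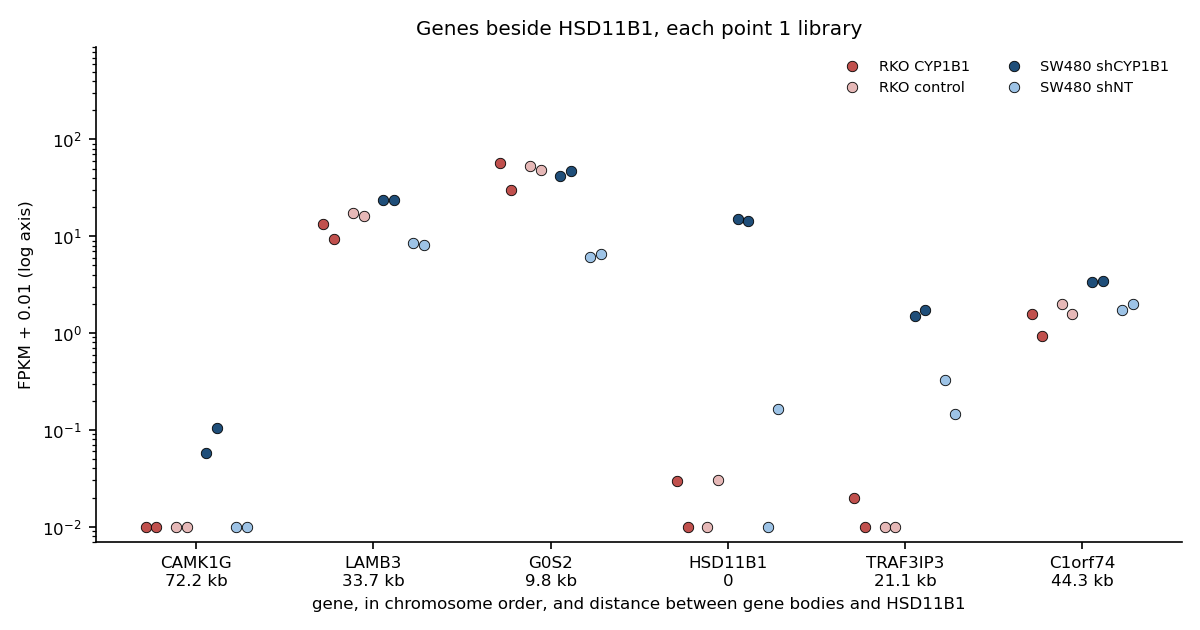
FPKM plus 0.01, on a log axis, of HSD11B1, the 3 table genes before it and the 2 after it, in chromosome order, with the distance to HSD11B1 under each name. Each point is 1 library. In SW480 the shCYP1B1 points lie above the shNT points for all 6 genes, from 3.35 and 3.45 against 1.70 and 1.98 FPKM for C1orf74 to 14.9 and 14.5 against 0 and 0.155 FPKM for HSD11B1.

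H6PD, the source of NADPH for the HSD11B1 enzyme, was lower in RKO with overexpression and higher in SW480 with knockdown. It had 1.99 and 1.65 FPKM with overexpression and 2.95 and 2.98 FPKM in RKO control cells, groups that did not overlap, and it fell by 0.68 on the log2 scale (SE 0.10, edgeR adjusted p = 0.000607). That call held in all 18 alternative settings. In SW480 it had 6.78 and 7.14 FPKM with shCYP1B1 and 4.92 and 5.28 FPKM with shNT, a log2 difference of 0.49 (SE 0.09) that is described without a test because the genes were chosen on that contrast. The 4 groups were separated throughout, in the order shCYP1B1, shNT, RKO control and RKO overexpression. H6PD lies at chr1:9234775-9271337 on the plus strand.

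HSD11B2, whose enzyme opposes HSD11B1, was listed somewhat higher in the manipulated cells of each line, in groups that did not overlap. Its levels were 5.28 and 5.62 FPKM with overexpression, against 4.53 and 3.16 FPKM in RKO control cells, and the difference did not pass (log2 fold change 0.52, SE 0.20, edgeR adjusted p = 0.0825). That result depended on which libraries entered: without control replicate 1 the value was 0.82 (adjusted p = 0.0366), without control replicate 2 it was 0.27 (0.441), and without overexpression replicate 1 it was 0.57 (0.0456). In SW480 it had 4.05 and 4.59 FPKM with shCYP1B1 and 3.53 and 3.36 FPKM with shNT (0.37, SE 0.21, described only). HSD11B1 thus exceeded HSD11B2 in FPKM in the shCYP1B1 libraries, whereas HSD11B2 was the higher of the pair in every other library. HSD11B2 lies at chr16:67430652-67437553 on the plus strand.

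NR3C1, the receptor gene, was near silent in RKO and low in SW480. RKO libraries held 4 and 2 reads with overexpression and 3 and 0 reads in control cells, at or near the limit of detection, and no fold is given between them. SW480 libraries had 0.617 and 0.595 FPKM with shCYP1B1 and 0.726 and 0.638 FPKM with shNT (log2 difference -0.13, SE 0.23, described only). The change in HSD11B1 was thus not accompanied by a change of similar size in the receptor transcript. FPKM of NR3C1 rests on an implied length of 19995 bp, against 1491 bp for HSD11B1, so few reads per base lie behind it. NR3C1 spans chr5:143277931-143435512 on the minus strand and has 16 annotated transcripts.

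A related receptor gene was split between the lines. NR3C2, the mineralocorticoid receptor that also binds cortisol, had 0.855 and 0.882 FPKM with overexpression, against 1.02 and 0.800 FPKM in RKO control cells. It was lower in SW480, at 0.0831 and 0.0639 FPKM with shCYP1B1 and 0.0491 and 0.0177 FPKM with shNT. NR3C2 did not pass edgeR's test in RKO (log2 fold change -0.05, edgeR adjusted p = 0.948) or in SW480 (1.17, edgeR adjusted p = 0.0637).

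TSC22D3, which encodes the leucine zipper protein GILZ, moved most among the response transcripts. It had 15.6 and 4.25 FPKM with overexpression, against 26.1 and 24.9 FPKM in RKO control cells. The overexpression libraries differed from each other by 3.69-fold, but both lay below both controls, and the gene fell by 1.34 on the log2 scale (SE 0.38, edgeR adjusted p = 0.0226). In SW480 it had 22.9 and 21.9 FPKM with shCYP1B1, against 6.95 and 6.47 FPKM with shNT, a log2 difference of 1.78 (SE 0.39, described only). The RKO call was lost without control replicate 1 (adjusted p = 0.113) or control replicate 2 (0.105), and the value was -2.57 without overexpression replicate 1 and -0.69 without overexpression replicate 2. TSC22D3 spans chrX:107713221-107777342 on the minus strand, with 17 annotated transcripts that the deposited gene counts do not separate.

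KLF9, a zinc finger repressor, followed the same sense. It had 2.56 and 1.59 FPKM with overexpression and 3.30 and 3.47 FPKM in RKO control cells, and it fell by 0.69 (SE 0.18, edgeR adjusted p = 0.0159). It had 10.3 and 9.30 FPKM with shCYP1B1 and 4.60 and 5.21 FPKM with shNT, a log2 difference of 1.04 (SE 0.17, described only). All 4 groups were separated, with shCYP1B1 highest and RKO overexpression lowest. The RKO call was lost without control replicate 1 (adjusted p = 0.0723) or control replicate 2 (0.103), and the value was -1.07 without overexpression replicate 1 and -0.39 without overexpression replicate 2. KLF9 lies at chr9:70384597-70414624 on the minus strand.

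FKBP5 and SGK1 did not share that pattern. FKBP5, a receptor co-chaperone that the receptor induces, had 8.36 and 8.94 FPKM with overexpression and 9.13 and 9.27 FPKM in RKO control cells (-0.07, SE 0.07, edgeR adjusted p = 0.502). In SW480 it was slightly lower in the knockdown, with 5.36 and 5.45 FPKM for shCYP1B1 and 6.40 and 6.22 FPKM for shNT (-0.18, SE 0.07, described only). SGK1, a kinase that raises sodium channel activity, overlapped in RKO, with 1.94 and 3.07 FPKM with overexpression and 2.29 and 1.90 FPKM in control cells (0.27, SE 0.22, edgeR adjusted p = 0.406). It was 0.57 without overexpression replicate 1 (adjusted p = 0.0216) and -0.10 without overexpression replicate 2. In SW480 it had 2.09 and 2.41 FPKM with shCYP1B1, against 3.41 and 3.39 FPKM with shNT (-0.55, SE 0.22, described only), the opposite direction from TSC22D3 and KLF9. FKBP5 lies at chr6:35573585-35728583 and SGK1 at chr6:134169246-134318112, both on the minus strand.

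**Figure D3:**
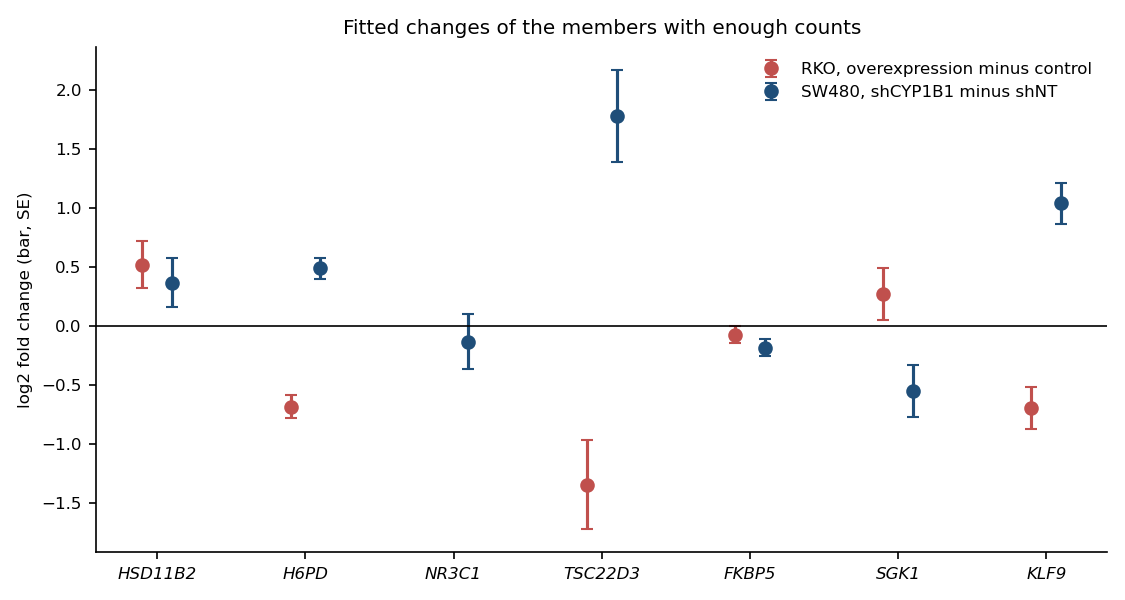
Log2 fold changes with their SE for the members that had counts in both groups, in RKO (overexpression minus control) and SW480 (shCYP1B1 minus shNT). HSD11B1 is left out because it has too few reads to place on this scale in RKO, and NR3C1 is shown for SW480 only. H6PD, TSC22D3 and KLF9 lie below 0 in RKO (-0.68, -1.34 and -0.69) and above 0 in SW480 (0.49, 1.78 and 1.04).

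In RKO, 2 of the 8 members, HSD11B1 and NR3C1, had too few reads to be called. Of the remaining 6, 3 fell, 0 rose and 3 did not pass, in a comparison where 27.6% of all genes tested were called and 13.8% fell. Those shares are over all 14157 genes, including genes with too few RKO reads to be called, so they are not matched to the 6. The same holds wherever genes with few RKO reads are set aside from a list. H6PD, TSC22D3 and KLF9 are the 3 that fell. Leaving out RKO control replicate 1 gave 1 higher and 1 lower, and leaving out control replicate 2 gave 0 higher and 1 lower. Leaving out overexpression replicate 1 gave 2 higher and 3 lower, and leaving out overexpression replicate 2 gave 0 higher and 3 lower. In SW480, where 50.6% of all genes tested were called, calls of members are not counted, because HSD11B1 was chosen on that contrast.

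The lines themselves differed in most of these genes, as their control groups show. Set against RKO control cells, SW480 shNT cells had 507 and 441 NR3C1 reads, against 3 and 0, a ratio of 294 with a 95% counting interval of 100 to 1430. The fitted log2 fold change of NR3C1 was 8.13, with 11.86 and 7.14 without RKO control replicate 1 and 2 in turn and 0.75 with limma on log2(FPKM + 1). H6PD was higher in SW480 shNT cells by 0.83 on the log2 scale (edgeR adjusted p = 7.7e-06), SGK1 by 0.74 (0.00919) and KLF9 by 0.58 (0.00986). TSC22D3 was lower in SW480 shNT cells by 1.88 (log2 fold change -1.88, edgeR adjusted p = 0.000934), and FKBP5 by a log2 fold change of -0.50 (5.38e-05). TSC22D3 and FKBP5 were higher in RKO control cells, with 3 or fewer NR3C1 reads per library, and SGK1 and KLF9 were higher in SW480 shNT cells. Any part of the receptor in these differences was not tested. HSD11B2 did not differ past the threshold (-0.11, edgeR adjusted p = 0.628). Between these groups 76.8% of all genes tested were called, 41.2% higher and 35.6% lower in SW480 shNT cells, so calls for single members are common in this comparison. SGK1 lost its call without RKO control replicate 2 (adjusted p = 0.0831) or shNT replicate 1 (0.0511), and KLF9 without control replicate 1 (0.0625) or shNT replicate 2 (0.0732); line, vector and any batch cannot be told apart here.

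Other transcripts that the receptor is known to induce moved in both directions. In SW480, 9 of 27 tested genes of that list rose, 7 fell and 11 did not pass, with a median log2 fold change of 0.36 against 0 over all genes tested, where 25.3% of all genes tested rose and 25.3% fell. PER1, a clock repressor, had 30.5 and 28.7 FPKM with shCYP1B1, against 4.08 and 3.72 FPKM with shNT (2.97, SE 0.10, edgeR adjusted p = 1.38e-08). The metallothionein MT1X (1.48), the cell cycle inhibitor CDKN1C (1.12) and the C/EBP factor CEBPD (0.87) rose too. LCN2, an iron-binding secreted protein, fell to 16.0 and 18.5 FPKM with shCYP1B1, against 81.2 and 75.8 FPKM with shNT (-2.14, SE 0.15, edgeR adjusted p = 9.7e-07). TNFAIP3 (-1.37), TFCP2L1 (-1.04) and NFKBIA (-0.81) also fell; TNFAIP3 and NFKBIA are feedback inhibitors of NF-kB that other signals induce as well. The list held 32 genes, of which 30 were in the table. It and the lists below were written with earlier results of these data known, so their counts are descriptions.

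In RKO, 3 of the 27 had too few reads to pass the count filter on RKO libraries alone. Of the remaining 24, 6 rose, 6 fell and 12 did not pass, with a median of -0.17, where 13.8% of all genes tested rose and 13.8% fell. MT2A, a metallothionein, had 856 and 738 FPKM with overexpression, against 527 and 466 FPKM in control cells (0.70, SE 0.10, edgeR adjusted p = 0.000528). CEBPD rose by 0.67, CDKN1C by 0.74 and MT1X by 0.73. LCN2 had 0.248 and 0.0738 FPKM with overexpression, against 1.28 and 1.07 FPKM in control cells, and fell (-2.79, SE 0.42, edgeR adjusted p = 0.000756). ERRFI1, a brake on EGF receptor signalling, had 38.1 and 11.3 FPKM with overexpression, against 75.2 and 78.8 FPKM in control cells (-1.62). The phosphatase gene DUSP1 (-0.91) and ZFP36 (-0.81), which encodes a protein that destabilises inflammatory mRNA, fell as well. In both lines CEBPD, CDKN1C and MT1X thus rose and LCN2 fell with either manipulation. Without RKO control replicate 2 only 3 of the list were called in RKO, and the calls for DUSP1 (adjusted p = 0.0501), ERRFI1 (0.0582), ZFP36 (0.0813), CDKN1C (0.0618) and MT1X (0.0741) were lost. Leaving out overexpression replicate 1 gave 0.47 for CDKN1C, 0.40 for MT1X and -2.75 for ERRFI1, and leaving out overexpression replicate 2 gave -0.58 for DUSP1, -0.50 for ZFP36 and -1 for ERRFI1.

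Inflammatory genes that the receptor is known to repress were lower in SW480 knockdown cells, where 9 of 13 tested genes fell, 0 rose and 4 did not pass, with a median of -2.59, against 25.3% of all genes tested that fell. Because the list was written with earlier results of these data known, this count is no independent finding. Which regulator these genes followed was not tested. CCL2, a monocyte chemokine, had 13.9 and 10.2 FPKM with shCYP1B1, against 73.6 and 75.6 FPKM with shNT (-2.59, SE 0.19, edgeR adjusted p = 1.27e-06). The neutrophil chemokine CXCL8 had 0.557 and 1.18 FPKM against 9.33 and 9.46 FPKM (-3.38). In RKO 9 of the 13 had too few reads to pass the count filter on RKO libraries alone and could hardly be called. Of the remaining 4, 1 fell, 0 rose and 3 did not pass, where 13.8% of all genes tested fell. That gene was LIF, a cytokine of the interleukin family, with 63.1 and 49.1 FPKM with overexpression, against 93.3 and 90.9 FPKM in control cells (-0.70, SE 0.10, edgeR adjusted p = 0.000583). In RKO 3 genes of this list were called, all lower, without overexpression replicate 1, and 2 without overexpression replicate 2.

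Chaperones that hold the receptor ready for hormone were higher in RKO with overexpression: 12 of 13 rose, 0 fell and 1 did not pass, with a median of 0.53, where 13.8% of all genes tested rose. NR3C1 itself had 4 and 2 reads with overexpression and 3 and 0 reads in RKO control cells. The counts therefore describe the listed genes, not the function of the receptor. HSPA8, the constitutive HSP70, had 856 and 1360 FPKM with overexpression, against 473 and 419 FPKM in control cells (1.33, SE 0.16, edgeR adjusted p = 0.000241). HSP90AA1, the HSP90 that binds the receptor, had 793 and 1010 FPKM against 562 and 531 FPKM (0.74), and PTGES3, the co-chaperone p23, rose by 0.63. In SW480 knockdown cells 6 rose, 2 fell and 5 did not pass, against 25.3% of all genes tested in each direction. HSP90AA1 (0.61), PTGES3 (0.53) and HSP90AB1 (0.48) were among those that rose. PPP5C, a phosphatase of the complex, had 29.9 and 31.2 FPKM with shCYP1B1, against 62.7 and 60.6 FPKM with shNT, and fell (-0.97, SE 0.07, edgeR adjusted p = 1.89e-06).

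Coregulators of the receptor were lower in RKO, where 9 of 14 fell, 1 rose and 4 did not pass (median -0.38), against 13.8% of all genes tested that fell. With NR3C1 near silent in RKO, this count too describes the listed genes only. NCOR1, a corepressor, had 3.08 and 3.51 FPKM with overexpression, against 5.95 and 5.88 FPKM in control cells (-0.82, SE 0.08, edgeR adjusted p = 9.36e-05). MED1, a Mediator subunit that nuclear receptors contact, fell by 0.66 on the log2 scale and the coactivator NCOA1 by 0.52. Without either control library 5 fell and 1 rose. In SW480 6 of 14 fell, 2 rose and 6 did not pass (median -0.32), so that 57.1% were called, near the 50.6% of all genes tested. NRIP1, a corepressor, had 0.979 and 0.907 FPKM with shCYP1B1, against 3.16 and 3.64 FPKM with shNT (-1.81, SE 0.13, edgeR adjusted p = 1.51e-06). CREBBP, a histone acetyltransferase, fell by 1.37, MED1 by 0.88 and NCOA1 by 0.53.

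Around the activating enzymes, genes of steroid synthesis and clearance mostly did not pass. In SW480 8 of 22 rose, 2 fell and 12 did not pass (median 0.40), so that 45.5% were called, against 50.6% of all genes tested. CYP3A5, a P450 that clears cortisol and many drugs, had 4.85 and 5.26 FPKM with shCYP1B1, against 0.850 and 1.19 FPKM with shNT (2.36, SE 0.19, edgeR adjusted p = 5.6e-06). SRD5A3, a reductase best known for dolichol synthesis, fell by 1.38, and HSD17B10, a mitochondrial dehydrogenase, fell by 0.83. In RKO 6 of the 22 had too few reads to pass the count filter on RKO libraries alone. Of the remaining 16, 6 rose, 1 fell and 9 did not pass (median 0.3). Of all genes tested in RKO, 27.6% were called, 13.8% in each direction. CBR1, a carbonyl reductase, was among those that rose, with 64.1 and 66.3 FPKM with overexpression, against 43.0 and 44.9 FPKM in control cells (0.59, SE 0.07, edgeR adjusted p = 0.000245). FDXR, which passes electrons to mitochondrial P450 enzymes, rose by 0.70 in RKO. The list gave 4 higher and 2 lower in SW480 without shCYP1B1 replicate 1, and 4 higher and 0 lower in RKO without either control library.

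Glucose 6-phosphate is the substrate of H6PD, and SLC37A4 carries it into the endoplasmic reticulum. SLC37A4 had 12.9 and 12.0 FPKM with shCYP1B1, against 20.4 and 16.9 FPKM with shNT, and fell (-0.54, SE 0.11, edgeR adjusted p = 0.002) while H6PD was higher. G6PC3, which hydrolyses the same substrate there, fell by 0.69, and TKT, of the cytosolic pentose phosphate pathway, rose by 0.85. Of the 11 tested genes of this supply list, 3 rose, 4 fell and 4 did not pass in SW480 (median -0.05), against 25.3% of all genes tested in each direction. In RKO 1 of the 11 was below the count filter on RKO libraries alone. Of the remaining 10, 3 rose, 1 fell and 6 did not pass (median 0.05), against 13.8% in each direction. The list gave 2 higher and 2 lower in SW480 without any 1 of the 4 SW480 libraries, and 2 higher and 0 lower in RKO without control replicate 1. Without overexpression replicate 2 it gave 5 higher and 0 lower in RKO, and the 1 lower gene was called in 1 of the 8 fits that left out a library.

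Genes around SGK1 moved in both directions in SW480, where 3 of 7 rose, 3 fell and 1 did not pass, against 25.3% of all genes tested in each direction. NDRG1, an SGK1 substrate, had 149 and 147 FPKM with shCYP1B1, against 42.3 and 43.4 FPKM with shNT (1.83, SE 0.25, edgeR adjusted p = 9.48e-05), while PDPK1, the kinase that activates SGK1, fell by 0.82. In RKO 3 of 7 fell, 0 rose and 4 did not pass (median -0.45), where 13.8% of all genes tested fell. RICTOR, part of the complex that also activates SGK1, had 6.14 and 6.55 FPKM with overexpression, against 9.71 and 10.5 FPKM in control cells (-0.65, SE 0.08, edgeR adjusted p = 0.000279). NEDD4L, the ubiquitin ligase that SGK1 inhibits, fell by 0.50. Without overexpression replicate 1 the list gave 4 lower and 1 higher in RKO.

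Of close relatives of the members, 7 of 9 rose in SW480 knockdown cells, 0 fell and 2 did not pass (median 0.45), where 25.3% of all genes tested rose, and 3 or 4 rose when any 1 of the SW480 libraries was left out. TSC22D4 had 99.2 and 96.9 FPKM with shCYP1B1, against 51.4 and 48.9 FPKM with shNT (1.01, SE 0.07, edgeR adjusted p = 7.82e-07), and TSC22D1 rose by 0.69. FKBP4, a co-chaperone that competes with the FKBP5 protein for the receptor complex, rose in both lines, by 0.45 in SW480 and 0.51 in RKO. In RKO 1 of the 9 was below the count filter on RKO libraries alone. Of the remaining 8, 3 rose, 1 fell and 4 did not pass, against 13.8% of all genes tested in each direction. TSC22D2 fell there, with 5.62 and 5.52 FPKM with overexpression, against 7.84 and 8.58 FPKM in control cells (-0.54, edgeR adjusted p = 0.000606). C/EBP factors, which bind the HSD11B1 promoter in other cell types, gave 2 of 6 higher and 0 lower in SW480, namely CEBPD (0.87) and CEBPZ (0.52), and 2 higher and 1 lower in RKO. That is 33.3% called, against 50.6% of all genes tested, in SW480, and 50% against 27.6% in RKO. In each line 5 were called without either overexpression library, all higher in SW480 and 2 higher and 3 lower in RKO. CEBPB, studied at HSD11B1 in other cells, did not pass in SW480, with 86.7 and 77.7 FPKM with shCYP1B1 and 62.1 and 63.3 FPKM with shNT (0.43, edgeR adjusted p = 0.151). The C/EBP letters TTGCNNAA were in 2 of the 19 windows, 1 of NR3C1 and 1 of SGK1, against 10.5% of all windows, and not in the HSD11B1 window printed above. That window covers 1 of the 4 annotated start positions of HSD11B1, and promoters at its other starts were not searched.

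**Figure D4:**
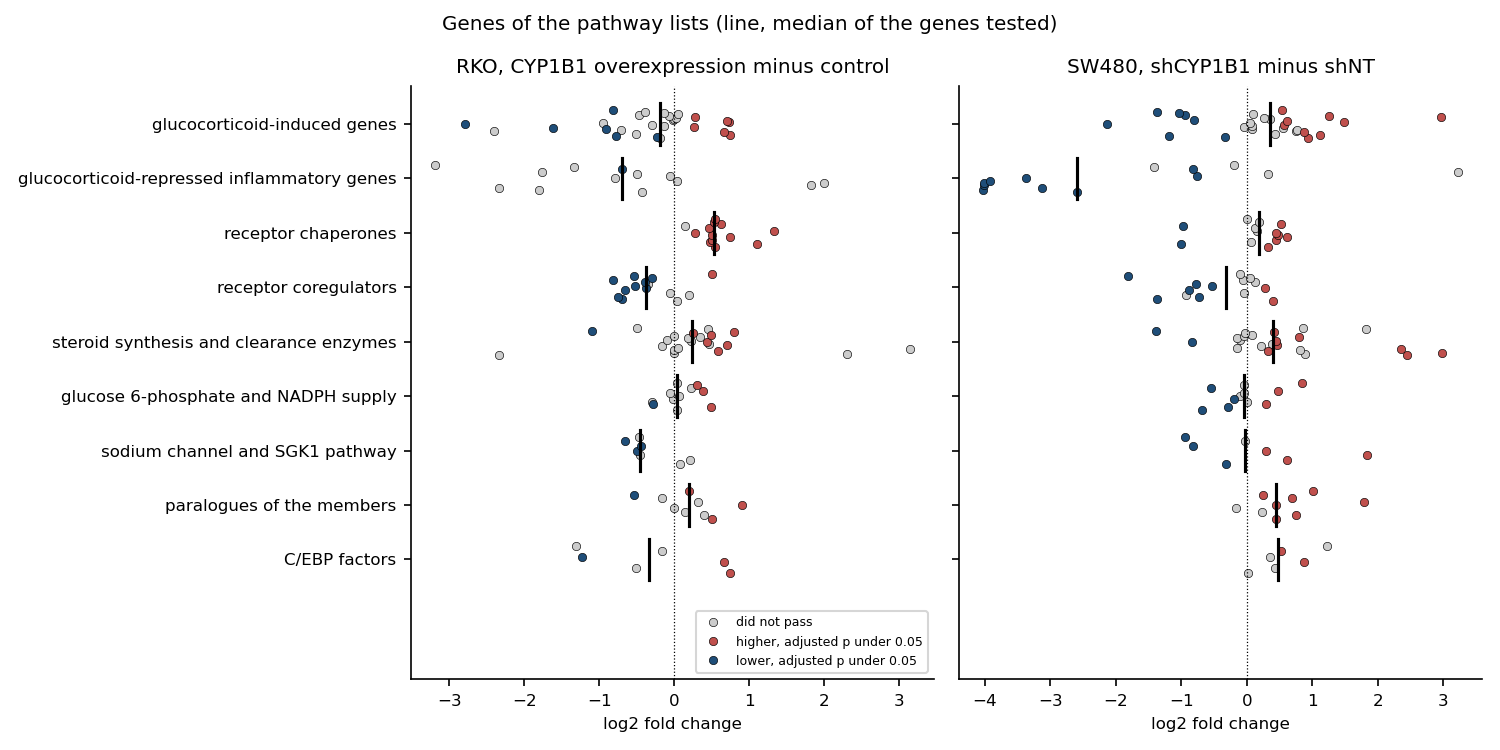
Log2 fold change of each tested gene of 9 lists around the receptor, in RKO (left) and SW480 (right), coloured by the edgeR call, with the median of each list as a line. Receptor chaperones lie to the right in RKO (12 of 13 rose) and receptor-repressed inflammatory genes to the left in SW480 (9 of 13 fell), while receptor-induced genes lie on both sides in each line. The lists were written with earlier results of these data known.

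Patterns over the 8 libraries set the members apart from each other. Likeness was measured as Pearson's r of log2(FPKM + 1) over 8 libraries among 11771 genes, libraries that share line and treatment, and is a description. Nearest to HSD11B1 were APLNR, the apelin receptor gene, SLA and AMOTL1 (r of 0.999, 0.999 and 0.998), which had the same single high group. APLNR had 3.51 and 3.28 FPKM with shCYP1B1 and at most 0.0790 FPKM elsewhere. Nearest to KLF9 were NAMPT, OSER1 and PAQR8 (0.995, 0.995 and 0.994), and nearest to H6PD were ETV5, STRN4 and ITGA2 (0.998, 0.997 and 0.996). NAMPT had 42.6 and 38.4 FPKM with overexpression, 47.8 and 48.6 FPKM in RKO control cells, 70.7 and 69.4 FPKM with shCYP1B1 and 52.0 and 52.9 FPKM with shNT. TSC22D3 was nearest to ARRDC3, ZCCHC7 and C20orf96 (0.982, 0.977 and 0.977), all of which had their lower overexpression value in replicate 2, as TSC22D3 did. NR3C1 was nearest to CBS, TNF and SFRP5 (1.000, 1.000 and 0.999), genes of SW480 that were at or near 0 in RKO.

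Markers of other cell types were checked because HSD11B1 is abundant in liver, fat and fibroblasts. Hepatocyte markers, mostly SERPINA1, summed to 86.1 and 87 FPKM with shCYP1B1 and to 103 and 100 FPKM with shNT. Of the 2 that could be tested 1 rose in SW480 and 0 fell, and CYP2E1 had 0.97 and 0.641 FPKM with shCYP1B1, against 0.325 and 0.0173 FPKM with shNT. The 4 adipocyte markers of 6 that were in the table summed to 3.58 and 3.33 FPKM with shCYP1B1 and to 1.84 and 2.13 FPKM with shNT. Of the 2 that could be tested 1 rose, 0 fell and 1 did not pass. PLIN1 had 60 and 60 reads with shCYP1B1, against 13 and 4 with shNT. ADIPOQ was listed at 0 in shCYP1B1 replicate 2 and in both shNT libraries. Fibroblast markers, 8 of 9 in the table, summed to 4.37 and 4.90 FPKM with shCYP1B1 and to 2.54 and 3.28 FPKM with shNT. Of the 6 that could be tested 1 rose, 0 fell and 5 did not pass. These marker counts stand beside 25.3% of all genes tested in each direction in SW480. Immune markers summed to 15.6 and 15.8 FPKM with shCYP1B1 and to 6.33 and 7.35 FPKM with shNT. Of the 5 that could be tested 2 rose in SW480, 0 fell and 3 did not pass (median -0.46). CD68 made up 12.7 and 13.8 FPKM of that sum with shCYP1B1, against 3.12 and 4.02 FPKM with shNT. CD3E had 30 and 17 reads with shCYP1B1, against 4 and 4 with shNT. LYZ was lower, with 30 and 14 reads against 58 and 56, and the leukocyte marker PTPRC stayed at or below 2 reads in every SW480 library. Of the 7 colon epithelial markers that could be tested, 4 fell in SW480, 2 rose and 1 did not pass (median -0.86), although their sum, mostly KRT8 and KRT18, varied little. EPCAM had 14.1 and 14.6 FPKM with shCYP1B1, against 84 and 84.7 FPKM with shNT, and VIL1 had 0.223 and 0.152 FPKM against 1.85 and 1.67 FPKM. The part of these markers in the results of the members and lists was not tested, and in bulk RNA fewer cells of a type and less RNA per cell cannot be told apart.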

How the data were processed

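The 8 libraries fall into 4 groups of 2 by their titles, and the deposited tables give a raw read count and an FPKM value per gene and library. The authors' FPKM is each count over a gene length and the library total. Per the submitters' processing notes the build was GRCh38.p13; aligner, counter, annotation and use of strand are not given in the sources used, so a gene and an overlapping or antisense partner cannot be separated. Per the labels' protocols, a stranded mRNA kit was used on 1 µg of total RNA.

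Counts were filtered with filterByExpr (minimum count 10, minimum total 15), scaled with TMM and fitted with 1 coefficient per group in edgeR 4.0.16 (R 4.3.3) to all 8 libraries together, leaving 4 residual degrees of freedom. Benjamini-Hochberg adjustment ran over the 14157 genes, and calls are at an adjusted p under 0.05. Exact permutation of 2 libraries against 2 cannot go below p = 0.333 and was not run. Ratios of summed counts carry exact 95% intervals that cover counting error only. The edgeR fit was checked on simulated counts for the RKO and SW480 comparisons, and the other steps were not. Alternatives comprised scaling by RLE or by library size only, no filter, 1 CPM in 4 libraries, DESeq2 1.42.0, limma 3.58.1 on log2 of FPKM plus 1 or plus 0.1, the 4 libraries of a contrast alone, the replicate block and each library left out. A group left with 1 library borrows its spread from the remaining groups, which are assumed to vary alike.

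The members and the lists were chosen with earlier results of these data known. The text names the members, CYP1B1, table genes on either side of HSD11B1, up to 4 genes per list and comparison by smallest p among those called at 5 CPM or more (up to 8 for receptor-induced genes), the relatives, receptors and C/EBP factors, and the 3 genes most like each member. Some genes that this rule selects are not reported here, although list counts include them. Counts of lists and neighbours with each library left out, and over genes that pass the count filter on RKO libraries alone, were added after seeing the data. Shares of all genes tested in RKO keep genes with few reads there, so they are not matched to the counts under that filter. Gene positions are from GENCODE release 29.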

Additional observations from a re-analysis of the deposited data

Results flagged for a closer look

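HSD11B2 and FKBP5 each had fitted values of the same sign under opposite manipulations of CYP1B1, unlike H6PD, TSC22D3 and KLF9. HSD11B2 was higher with overexpression in RKO (log2 fold change 0.52, SE 0.20) and higher with shCYP1B1 in SW480 (0.37, SE 0.21). FKBP5 was nearly flat in RKO (-0.07, SE 0.07) and lower with shCYP1B1 in SW480 (-0.18, SE 0.07). Taken as the effect of more CYP1B1, the sign of each fitted value therefore differs between the lines. For FKBP5 that sign rests on an RKO value no larger than its SE. The difference was not tested, and neither RKO value passed the threshold.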

How the results depend on the processing

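In RKO, 3907 genes, 3 members and 12 receptor-induced genes were called. With only the 4 libraries of the contrast these were 2294 genes and 1 member, and with limma on log2(FPKM + 1) without a filter 1 member and 6 receptor-induced genes. Leaving out each library in turn gave 1784 to 5629 genes, 1 to 5 members and 3 to 16 receptor-induced genes. In SW480 it gave 5076 to 8756 genes and 12 to 19 receptor-induced genes, and between the control groups 9747 to 11714 genes. SGK1 in RKO changed sign without overexpression replicate 2 and ranged from -0.10 to 0.57 over the libraries left out. HSD11B2 between the control groups changed sign without RKO control replicate 1 and ranged from -0.36 to 0.18. H6PD in RKO ranged from -0.83 to -0.49. TSC22D3 lost its RKO call with DESeq2 (adjusted p = 0.0802), limma without a filter (0.0907) and the 4 libraries of the contrast (0.0857), and KLF9 with the last 2 (0.0701 and 0.0687). The fitted HSD11B1 value in SW480 was 3.87 with limma on log2(FPKM + 1) and 6.53 with a pseudocount of 0.1. The cause of these changes was not tested. Same-numbered libraries did not deviate together (r = -0.03 in RKO and -0.01 in SW480 over 14157 genes), so numbers were not taken to pair samples. With the replicate block 3810 genes were called in RKO, 6960 in SW480 and 10768 between the control groups, with 3 members in RKO and 10 and 16 receptor-induced genes in RKO and SW480. Depth limits HSD11B1 and NR3C1 in RKO, where 3 counts correspond to between 0.0873 and 0.0951 CPM.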
